A study of Homo sapiens with 14 samples.

Results

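The comparison was between A549 cells, a human lung carcinoma line, that re-expressed the S34F mutant of U2AF1 from the construct labelled v3 and the same cells that re-expressed S34F from the construct labelled v1. It rests on 4 of the 14 RNA-seq libraries of the series, 2 replicates of v3 S34F and 2 of v1 S34F, chosen by their titles. All 4 carried a U2AF1 siRNA as well as the virus, so they share the knockdown and differ in which version of the mutant protein was supplied. Set beside them were the wild-type (WT) counterparts after the same knockdown, 2 libraries of v3 WT and 2 of v1 WT. The remaining groups, 2 libraries each, were cells with an empty vector and U2AF1 siRNA (knockdown), cells with an empty vector and control siRNA, and untreated cells. Whether the 2 replicates were grown as separate cultures is not stated. The p-values therefore reflect how much these libraries vary, and that variation may be technical. Transcript levels do not separate S34F from WT sequence, nor virus-derived from endogenous U2AF1.

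U2AF1 is the small subunit of U2AF, the factor that marks the end of an intron for the spliceosome. Its partner U2AF2 binds the pyrimidine-rich tract, and U2AF1 reads the AG dinucleotide that closes the intron, the 3′ splice site or acceptor, through zinc fingers. S34F replaces serine 34 in the first zinc finger by phenylalanine, recurs in lung adenocarcinoma and myelodysplastic syndromes, and shifts the choice of acceptors according to the base before the AG. The gene has a pair of mutually exclusive versions of its exon 3, so that its main isoforms share all coding exons but that one.

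The isoforms that carried the constructs are told apart by this exon, read here from the transcripts of GENCODE release 29. In GRCh38 the exon of ENST00000291552, which dominated the v3 libraries, lies at chr21:43100453-43100519 on the minus strand. The exon of ENST00000380276, which dominated the v1 libraries, lies at chr21:43101366-43101432 on the same strand. Both are exon 3 of 8 and 67 bases long. They are printed 5′ to 3′ with the 23 bases that differ in capitals.
ENST00000291552 (v3 libraries): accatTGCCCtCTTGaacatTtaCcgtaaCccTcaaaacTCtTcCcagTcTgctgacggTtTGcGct
ENST00000380276 (v1 libraries): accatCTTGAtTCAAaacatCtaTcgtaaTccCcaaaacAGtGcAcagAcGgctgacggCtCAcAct

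Total U2AF1 was far above the endogenous level in all 4 libraries and did not differ detectably between the constructs, while the isoform present was exchanged almost completely. Summed over its isoforms, U2AF1 (ENSG00000160201, GRCh37 chr21:44513066-44527697) was at 2114 and 3239 FPKM (fragments counted per kilobase of an RNA and relative to all mapped fragments of its library) in v3 S34F libraries, against 2180 and 3852 FPKM in v1 S34F libraries. Knockdown libraries had 16.2 and 28.9 FPKM, and those with control siRNA 117 and 119 FPKM. The 2 constructs overlapped, with replicate 2 higher than replicate 1 in both. The log2 difference, v3 S34F minus v1 S34F on the log2(FPKM + 1) scale used for all genes, was -0.15 (SE 0.31, 95% interval -0.84 to 0.55, limma adjusted p = 1).

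The usage of ENST00000291552, its FPKM as a percent of the gene's, was 95.6% and 95.1% in v3 S34F libraries, against 1.31% and 1.45% in v1 S34F libraries. This is a difference of 94.0 percentage points (SE 4.29, limma adjusted p = 7.1e-05). ENST00000380276 made up 1.13% and 1.44% in v3 S34F libraries and 97.8% and 97.4% in v1 S34F libraries, a difference of -96.3 points (SE 4.35, limma adjusted p = 7.1e-05). Fitted on the 4 S34F libraries alone, the last difference had the same size and an adjusted p of 0.121, and neither isoform was called, so the calls need the spread shared with the other groups. The exchange was of the same size between v3 WT and v1 WT (94.0 and -96.3 points). ENST00000464750, a transcript of the nonsense-mediated decay type that uses the acceptors of both exons, was at 57.8 and 89.9 FPKM in v3 S34F libraries against 6.74 and 16.4 FPKM in v1 S34F libraries.

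**Figure D1:**
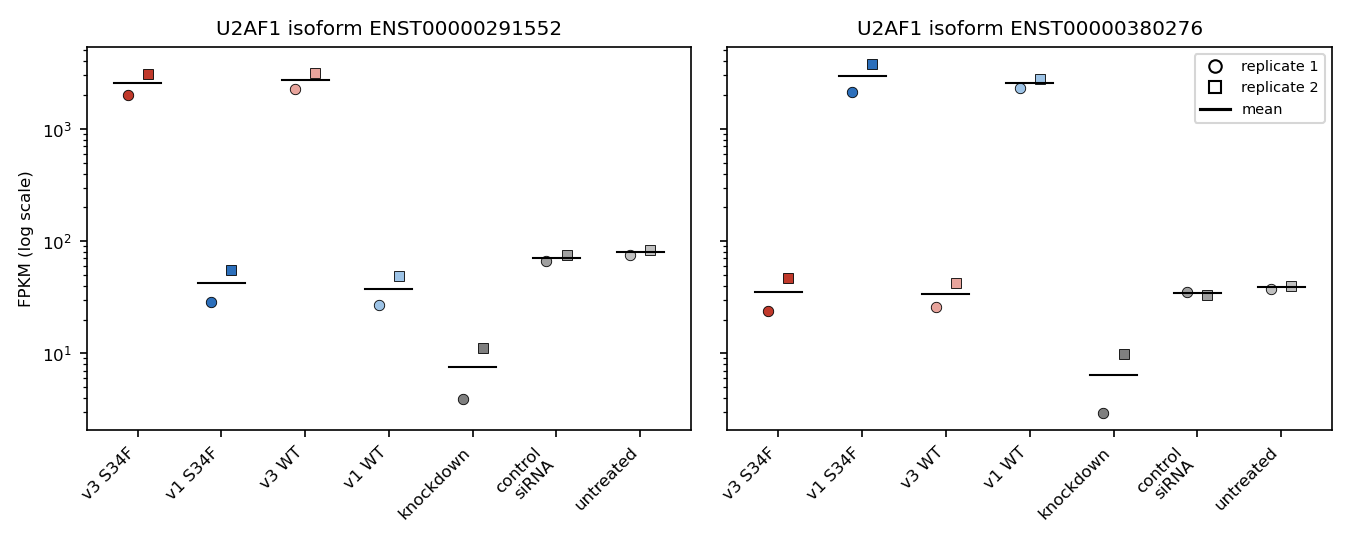
FPKM of the 2 main U2AF1 isoforms (log scale) in each of the 14 libraries by group, with a horizontal line at each mean of 2 libraries. ENST00000291552 reaches at least 2020 FPKM in v3 libraries and at most 55.8 FPKM in v1 libraries, with S34F and with WT, and ENST00000380276 shows the reverse.

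Depth was lowest in v1 S34F replicate 2. Relative depth, from the ratio of the deposited coverage to FPKM, was 0.979 and 0.957 in v3 S34F libraries and 0.981 and 0.798 in v1 S34F libraries, where 0.798 was the lowest of all 14. In v1 S34F replicate 2 a single RNA of 75 bases, AL132768.1, held 33.1% of the summed FPKM. FPKM is divided by RNA length, so this is not its share of the reads. On the first principal component of the genes (30.7% of the variance) v3 S34F libraries stood at -1.61 and 38.7, and v1 S34F libraries at 2.81 and 48.4, so that the replicate number separated these libraries more than the construct did. Epithelial markers were mixed. KRT8 was at 1480 and 1174 FPKM in v3 S34F libraries and 1656 and 1297 FPKM in v1 S34F libraries, while 6 of 21 markers, among them ESRP1, ESRP2 and GRHL2, were under 1 FPKM in all 4. EPCAM was at 3.97 and 2.81 FPKM in v3 S34F libraries and 3.75 and 2.20 FPKM in v1 S34F libraries. CDH1, the epithelial cadherin, was at 28.5 and 8.75 FPKM in v3 S34F libraries and 32.0 and 8.71 FPKM in v1 S34F libraries, so that it went with the replicate number and not with the construct. Of 18 alveolar and airway markers 14 were under 1 FPKM in all 4, and so were 8 of 10 fibroblast markers and 11 of the 14 leukocyte and endothelial markers in the table (PTPRC at most 0.0162 FPKM, CD3E, DCN and FAP at 0). The leukocyte marker CD68 was at 39.5 and 60.2 FPKM in v3 S34F libraries and 46.9 and 48.7 FPKM in v1 S34F libraries. CD14 and ITGAM of that list reached 2.05 and 2.83 FPKM, and the fibroblast markers COL1A1 and THY1 9.37 and 2.75 FPKM.

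Across the transcriptome the construct made little measurable difference to gene levels. Of 14233 genes tested, limma called 0 (0%) at an adjusted p under 0.05. The smallest adjusted p was 0.961. At an unadjusted p under 0.05 there were 240 genes (1.69%), 152 higher (1.07%) and 88 lower (0.618%) with v3 S34F, and 510 with the replicate number as a block, again with 0 called. The median absolute log2 difference was 0.096 and the median standard error 0.203, from the spread over all 14 libraries. For a typical gene 2 standard errors are about 0.41, a limit before adjustment and in the fit without the replicate block. After adjustment over all genes a call takes a larger difference. At least 1 log2 unit separated the constructs in 87 genes, short RNAs among them. The differences seen in replicate 1 and in replicate 2 had little in common. Of 14073 genes with an isoform of at least 300 bases, U2AF1 set aside, 43 were higher by 1 log2 unit or more in replicate 1 and 45 in replicate 2, and 2 were in both. Lower by as much were 44 and 60, and 3 were in both. Between v3 WT and v1 WT 0 genes were called likewise, with 150 (1.05%) at an unadjusted p under 0.05. The difference between the S34F and WT differences was called in 0 genes too, with 101 (0.71%) at that unadjusted p.

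**Figure D2:**
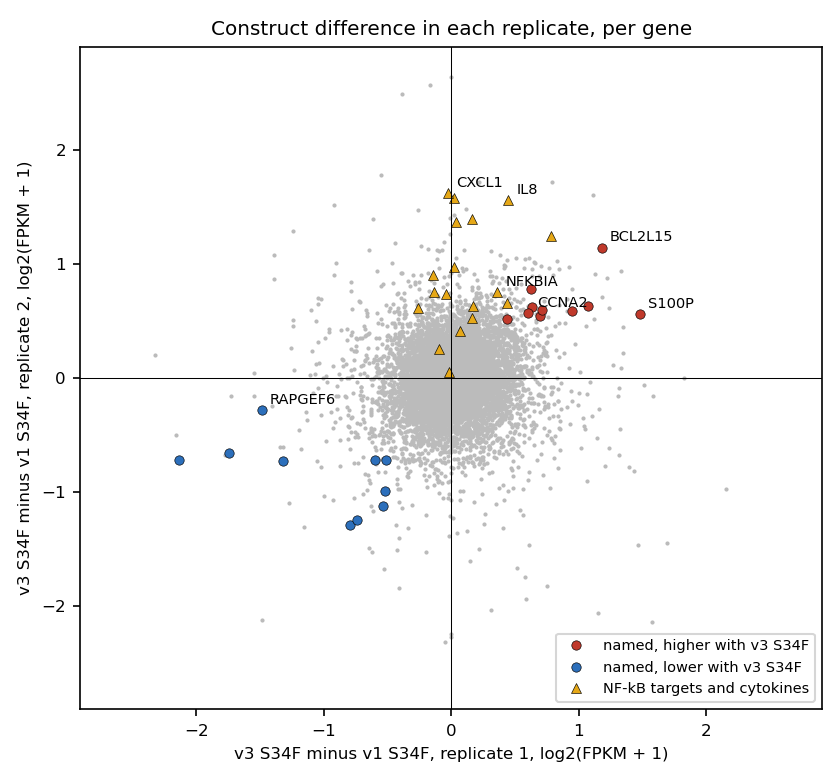
Difference v3 S34F minus v1 S34F per gene on the log2(FPKM + 1) scale, in replicate 1 (horizontal) against replicate 2 (vertical), for 14074 genes with an isoform of at least 300 bases. Named genes (circles) lie off the centre in both replicates because they were chosen so, whereas most genes of the NF-kB and cytokine list (triangles) lie near 0 in replicate 1 and above 0 in replicate 2.

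The genes with the smallest p whose libraries did not overlap are described here as the best candidates in each direction, although all had an adjusted p of 1. Both v3 S34F libraries lay above both v1 S34F libraries in 10.3% of all genes and below them in 8.26%. CCNA2, the cyclin that drives S phase and entry into mitosis (ENSG00000145386, GRCh37 chr4:122737599-122745087), was at 30.0 and 25 FPKM in v3 S34F libraries, against 19.4 and 16.5 FPKM in v1 S34F libraries. The log2 difference was 0.59 (SE 0.13, 95% interval 0.30 to 0.88). Levels were 37.3 and 36.2 FPKM in v3 WT libraries and 35.6 and 41.6 FPKM in v1 WT libraries, and 38.4 to 47.9 FPKM in the other 6. All 4 S34F libraries were thus below the other 10, and those with v1 S34F lowest. The test of the difference between differences, S34F against WT, gave an unadjusted p of 0.00475 and an adjusted p of 1. Bulk RNA alone does not separate fewer cells of a type from less RNA per cell. Other genes of G2/M were mixed. In the list of 30, CCNA2 included, 9 had both v3 S34F libraries above both v1 S34F libraries, and 5 had them below. DLGAP5 went the way of CCNA2, at 39.0 and 33.8 FPKM in v3 S34F libraries and 32.3 and 30.8 FPKM in v1 S34F libraries. In WT libraries DLGAP5 was at 42.0 to 48.6 FPKM. CCNB1, the cyclin of mitotic entry, was at 221 and 216 FPKM in v3 S34F libraries, against 227 and 229 FPKM in v1 S34F libraries, and at 199 and 227 FPKM with v1 WT. CDK1, the kinase it activates, was at 116 and 106 FPKM in v3 S34F libraries, against 108 and 92.4 FPKM in v1 S34F libraries, and at 98.1 and 99.8 FPKM with v1 WT.

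BCL2L15, a member of the BCL2 family (GRCh37 chr1:114420790-114430169), was at 2.44 and 2.31 FPKM in v3 S34F libraries, against 0.517 and 0.497 FPKM in v1 S34F libraries. The difference was 1.16 (SE 0.23, 95% interval 0.65 to 1.68), and the other 10 libraries ranged from 0.577 to 1.48 FPKM, between the groups. S100P, a calcium-binding protein, had 9.24 and 9.05 FPKM in v3 S34F libraries and 2.67 and 5.82 FPKM in v1 S34F libraries (log2 difference 1.02, SE 0.26).

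In most of the higher candidates, CCNA2, BCL2L15 and the next 3 among them, the v1 S34F libraries were the lowest of all 14. SLC36A4, an amino acid transporter, was at 12.3 and 12.5 FPKM in v3 S34F libraries, against 5.33 and 7.68 FPKM in v1 S34F libraries, with all other libraries at 11.3 FPKM or more. GNB5, a G protein beta subunit, was at 20.8 and 20.2 FPKM in v3 S34F libraries and 13.1 and 11.3 FPKM in v1 S34F libraries. COG2, a subunit of the Golgi tethering complex COG, was at 14.8 and 17.0 FPKM in v3 S34F libraries and 8.65 and 10.9 FPKM in v1 S34F libraries.

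SLC36A4, GNB5 and COG2, and also NOP14 and UFSP2, were higher in both v3 WT libraries than in both v1 WT libraries. SLC36A4 was at 13.5 and 16.1 FPKM in v3 WT libraries and 11.4 and 11.3 FPKM in v1 WT libraries. For GNB5 these were 21.8 and 19.5 FPKM against 16.8 and 14.7 FPKM, and for COG2 16.4 and 18.5 FPKM against 14.5 and 14.1 FPKM. NOP14, a nucleolar protein of small ribosomal subunit assembly, was at 24.4 and 25.5 FPKM in v3 S34F libraries, against 15.4 and 16.1 FPKM in v1 S34F libraries. It was at 30.6 and 29.9 FPKM in v3 WT libraries, against 21.5 and 21.4 FPKM in v1 WT libraries. UFSP2, a protease that matures the ubiquitin-like modifier UFM1, was at 15.2 and 12.5 FPKM in v3 S34F libraries and 8.97 and 8.28 FPKM in v1 S34F libraries. With WT it was at 17.2 and 13.6 FPKM for v3 and 10.5 and 11.2 FPKM for v1. Another candidate, RP11-195F19.5, had 6.80 and 4.74 FPKM in v3 S34F libraries and 3.05 and 2.82 FPKM in v1 S34F libraries. WT libraries had 6.77 and 7.04 FPKM for v3 and 5.13 and 6.79 FPKM for v1.

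Most of the 10 lower candidates are loci with clone-based, pseudogene or antisense names and low levels. RAPGEF6, an exchange factor that activates Rap GTPases, was at 6.34 and 8.71 FPKM in v3 S34F libraries, against 19.6 and 10.8 FPKM in v1 S34F libraries. The difference was -0.88 (SE 0.25), and the other 10 libraries stayed between 6.72 and 9.46 FPKM, so that the v1 S34F libraries, replicate 1 above all, stood apart. TMEM38B, an intracellular cation channel of the endoplasmic reticulum, was at 7.85 and 8.29 FPKM in v3 S34F libraries and 11.6 and 14.3 FPKM in v1 S34F libraries. DEPDC4 had 1.52 and 1.07 FPKM with v3 S34F and 3.37 and 4.08 FPKM with v1 S34F. STARD13-AS, an RNA antisense to STARD13, had 1.71 and 1.62 FPKM with v3 S34F and 2.94 and 4.69 FPKM with v1 S34F, and at most 0.669 FPKM in the other 10 libraries. It was thus seen mainly in S34F libraries, and strand was not given, so reads of STARD13 itself may enter it. The other 6 (FP15737, RP3-437C15.1, AC023490.1, RP11-1149O23.3, AP006222.2 and HMGA1P8) ranged in log2 difference from -1.43 to -0.66. HMGA1P8 is a pseudogene whose reads may be split with HMGA1, so its level is uncertain.

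Between v3 WT and v1 WT, libraries that the choice did not use, 15 of the 20 candidates differed with the same sign, 3 of them at an unadjusted p under 0.05. Both p-values draw on the same estimate of each gene's spread. Over all genes but U2AF1 the S34F and WT differences had a Pearson correlation of 0.064, a description across genes that are not independent replicates.

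**Figure D3:**
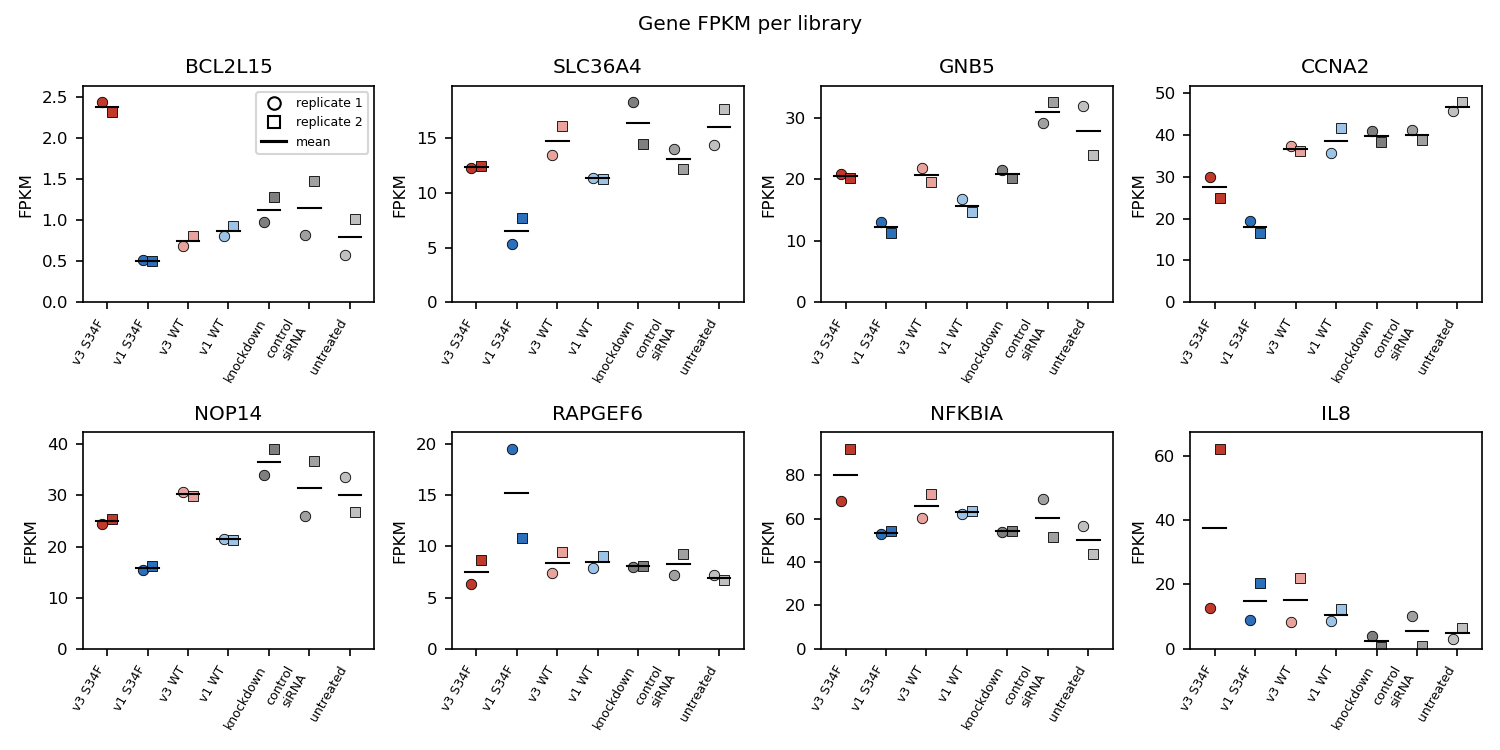
FPKM per library of 6 of the candidate genes and of NFKBIA and IL8, by group from v3 S34F on the left to untreated cells on the right, with lines at the means of 2 libraries. In SLC36A4 and GNB5 the v1 S34F libraries are the lowest, and IL8 reaches 62.3 FPKM in v3 S34F replicate 2 alone.

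Among 22 gene lists the NF-kB targets and inflammatory cytokines stood farthest from 0, yet most of the difference lay in replicate 2. These genes are switched on when NF-kB enters the nucleus and include secreted chemokines as well as the inhibitors that end the response. Of 18 members tested 0 were called, and all 18 were above 0, beside 52.1% of all genes. Their median log2 difference was 0.45, beside 0.01 over all genes. Summed over the list, FPKM was 428 and 762 in v3 S34F libraries, against 398 and 411 in v1 S34F libraries. Within replicate 1 the members above 0 were 11 of 18, with a median of 0.03, and within replicate 2 they were 18 of 18, with a median of 0.75. Without v3 S34F replicate 2, which leaves the replicates unequal between the constructs, only 8 of 18 were above 0, and the median was -0.08. The WT libraries showed the same split, with 10 of 18 above 0 in replicate 1 (median 0.02) and 17 of 18 in replicate 2 (median 0.60), beside 51.9% of all genes above 0 with WT.

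By role, the secreted ligands spanned the widest range. IL8, a chemokine that attracts neutrophils, was at 12.7 and 62.3 FPKM in v3 S34F libraries, against 9.09 and 20.4 FPKM in v1 S34F libraries (log2 difference 1.00, SE 0.91). CXCL1 was at 12 and 42.8 FPKM in v3 S34F libraries and 12.3 and 13.2 FPKM in v1 S34F libraries. CCL20, which attracts cells with the receptor CCR6, was at 7.38 and 11.7 FPKM in v3 S34F libraries and 3.88 and 4.37 FPKM in v1 S34F libraries, the only one of these 3 chemokines whose groups did not overlap. Among the feedback inhibitors, NFKBIA, which holds NF-kB in the cytoplasm, was at 68.2 and 92.5 FPKM in v3 S34F libraries, against 52.8 and 54.4 FPKM in v1 S34F libraries. Its difference was 0.56 (SE 0.18, 95% interval 0.16 to 0.96, limma unadjusted p = 0.0106, adjusted p = 1). TNFAIP3, an enzyme that removes ubiquitin chains from the pathway's signalling proteins, was at 7.67 and 34.6 FPKM in v3 S34F libraries and 8.59 and 18.0 FPKM in v1 S34F libraries. PTGS2, the inducible cyclooxygenase, was at 10.6 and 12.3 FPKM in v3 S34F libraries and 7.55 and 7.45 FPKM in v1 S34F libraries. LIF, a cytokine of the IL6 family, was at 53.5 and 54.6 FPKM in v3 S34F libraries and 54.2 and 52.6 FPKM in v1 S34F libraries, with the smallest difference of the list (0.02).

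The remaining lists had medians between -0.24 and 0.15, and 0 members of any were called. Cell cycle genes of G1/S and DNA replication were above 0 in 22 of 27 with v3 S34F (median 0.06). The count was 19 of 27 within replicate 1 and 20 of 27 within replicate 2. It was 16 of 27 without v3 S34F replicate 1 or without v1 S34F replicate 2, which leave the replicates unequal between the constructs. With WT only 4 of 27 were above 0 (10 within replicate 1 and 4 within replicate 2). The S34F and WT counts of this list were not tested against each other. MCM6, a subunit of the replicative helicase, was at 46.0 and 44.4 FPKM in v3 S34F libraries and 40.6 and 34.8 FPKM in v1 S34F libraries. Of the 30 genes of G2/M and mitosis 17 were above 0 (median 0.01). ECT2, which organises the cleavage furrow, was at 83.8 and 78.1 FPKM in v3 S34F libraries and 63.4 and 69.7 FPKM in v1 S34F libraries. Targets of p53 were above 0 in 9 of 24 with S34F (median -0.03) and in 21 of 24 with WT (median 0.15). With S34F the count was 7 of 24 within replicate 1 and 12 of 24 within replicate 2. It was 14 of 24 without v3 S34F replicate 1 (median 0.03) or without v1 S34F replicate 2 (median 0.04), again with the replicates unequal. With WT it was 15 of 24 within replicate 1 and 23 of 24 within replicate 2, and the S34F and WT counts were not tested against each other.

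Genes of cholesterol biosynthesis were below 0 in 18 of 22 (median -0.13), but the direction differed between the replicates. Both v3 S34F libraries lay below both v1 S34F libraries in 5 of 22 and above them in 0, beside 8.26% and 10.3% of all genes. Above 0 was 1 of 22 within replicate 1 and 17 of 22 within replicate 2. Without v1 S34F replicate 1, 14 of 22 were above 0 (median 0.06). HMGCS1, which makes the precursor of mevalonate, was at 108 and 128 FPKM in v3 S34F libraries and 136 and 138 FPKM in v1 S34F libraries. The 15 mitochondrially encoded genes, taken as a sign of RNA quality and composition, were all below 0 (median -0.14), and 12 of 15 were above 0 after quantile normalization. They summed to 42509 and 58278 FPKM in v3 S34F libraries, against 42660 and 71317 FPKM in v1 S34F libraries. Without v3 S34F replicate 1, or without v1 S34F replicate 2, all 15 were above 0. Leaving out 1 library, here and for cholesterol biosynthesis, leaves the replicates unequal between the constructs. Within each replicate the mitochondrial sum was lower with v3 S34F. Of the 22 in the U2AF and 3′ splice site list 8 were above 0 (median -0.04). U2AF2, the partner subunit, was at 103 and 96.4 FPKM in v3 S34F libraries and 106 and 117 FPKM in v1 S34F libraries, and between 172 and 340 FPKM in the other 10. RBM17, which works at alternative acceptors, was at 115 and 117 FPKM in v3 S34F libraries and 127 and 166 FPKM in v1 S34F libraries (log2 difference -0.32, limma unadjusted p = 0.0445).

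**Figure D4:**
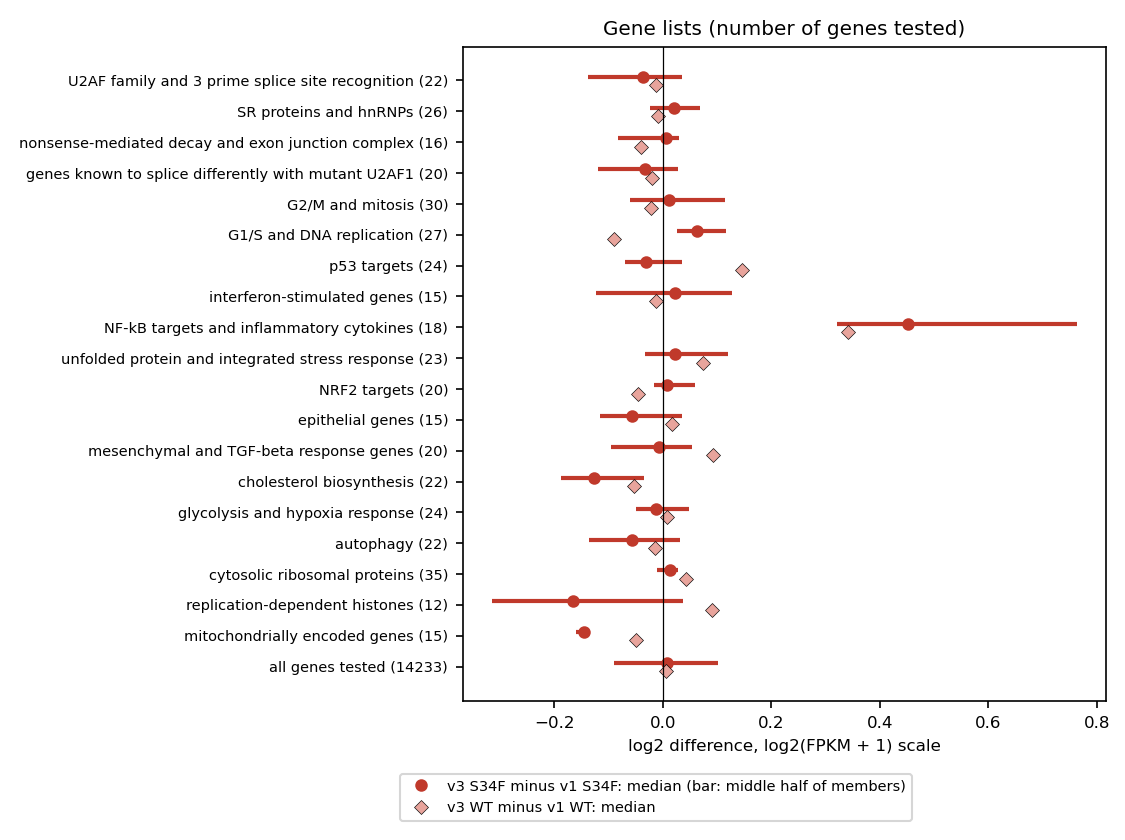
Median log2 difference of each gene list with at least 10 genes tested, for v3 S34F minus v1 S34F (circles, bars from the lower to the upper quartile of the members) and for v3 WT minus v1 WT (diamonds). The NF-kB list lies at 0.45 and 0.34, and the other lists lie between -0.17 and 0.15.

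Splicing was compared through isoform usage, and there too U2AF1 itself supplied the calls. Of 41727 isoforms in 11666 genes 2 (0.00479%) were called, the 2 U2AF1 isoforms above, and 1730 (4.15%) had an unadjusted p under 0.05, 839 more used (2.01%) and 891 less used (2.14%) with v3 S34F. The median standard error was 5.45 points. For a typical isoform 2 standard errors are thus about 10.9 points, again a limit before adjustment and without the replicate block. By transcript type, 38 isoforms annotated for nonsense-mediated decay were more used and 60 less used at that p, out of 2711. This share of 3.61% was under the 4.15% of all isoforms. Their median difference was -0.0007 points, and 49.8% were above 0. Processed transcripts had 92 and 120 of 4612, retained introns 72 and 61 of 4946, protein-coding isoforms 505 and 508 of 24788, and lincRNAs 20 and 15 of 664. Differences of 20 points or more were in the same direction in both replicates in 220 isoforms higher and 209 lower, out of 1479 and 1524 so large in replicate 1. Both v3 S34F libraries lay above both v1 S34F libraries in 14.9% of isoforms and below them in 13.9%.

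In several of the named isoforms the v1 S34F libraries stood apart, although none outside U2AF1 was called. XRCC5 encodes Ku80, which holds broken DNA ends for joining. Its short isoform ENST00000417391 (605 bases) was at 4.54 and 5.69 FPKM in v3 S34F libraries, against 48.5 and 37.7 FPKM in v1 S34F libraries. This was 2.44% and 3.28% of XRCC5 in v3 S34F libraries and 20.1% and 17.9% in v1 S34F libraries, a difference of -16.1 points (SE 2.34, 95% interval -21.4 to -10.9, adjusted p = 0.169). The 2 v1 S34F libraries were the highest of all 14, next came v1 WT at 6.99% and 6.19%, and v3 WT at 2.08% and 2.33% lay within the 1.26% to 3.11% of the 6 libraries without a U2AF1 construct. The isoform is set apart by exon 2 of 6, whose acceptor is at position 216110467 of chromosome 2 (plus strand, GRCh38).

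NPEPL1, an aminopeptidase-like protein, has an isoform of the nonsense-mediated decay type, ENST00000533788. Its usage was 2.81% and 2.83% in v3 S34F libraries, against 23.6% and 19.6% in v1 S34F libraries (-18.8 points, SE 2.65, adjusted p = 0.164), and at most 7.46% in the other 10. OSBPL2, an oxysterol-binding protein relative, used ENST00000358053 for 5.56% and 4.68% in v3 S34F libraries and 20.8% and 24.5% in v1 S34F libraries, and for at most 6.80% elsewhere. SPATA7, a protein of the photoreceptor cilium, used ENST00000356583 for 65.0% and 66.7% in v3 S34F libraries, against 84.6% and 86.5% in v1 S34F libraries, and for at most 69.9% elsewhere. In LAS1L, a nucleolar protein that helps cut the ribosomal RNA precursor, ENST00000374807 made up 79.0% and 75.9% in v3 S34F libraries, against 64.2% and 60.8% in v1 S34F libraries, and 71.9% or more elsewhere. In all 5 genes the v1 S34F libraries were outside the range of the other 12.

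In AAMDC the v3 S34F libraries stood apart. Its isoform ENST00000393427 made up 37.3% and 38.0% in v3 S34F libraries, against 69.7% and 60.1% in v1 S34F libraries, and 53.9% to 68.8% in the other 10. The difference of -27.2 points (SE 3.57, adjusted p = 0.153) stood against 10.6 points between v3 WT and v1 WT, and the difference between these differences had an unadjusted p of 3.51e-05. The usage test called 0 isoforms for that difference of differences, and 1295 (3.10%) had an unadjusted p under 0.05. The v3 S34F libraries were also the highest of all 14 for the named isoforms of DHRS11, SETD4 and BAIAP2, and the lowest for that of THSD4.

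Other named isoforms had an unadjusted p under 0.05 and the same sign between v3 WT and v1 WT. UBE2Q2, a ubiquitin-conjugating enzyme, used ENST00000569423 for 46.7% and 48.3% in v3 S34F libraries, against 63.8% and 66.6% in v1 S34F libraries (-17.7 points, SE 2.78, adjusted p = 0.268). With WT it was 16.5% and 15.4% for v3 against 27.6% and 28.2% for v1 (-11.9 points, unadjusted p = 0.00194). The S34F libraries were all above the WT libraries, and within each pair v1 was above v3. WIBG, known as PYM1, takes exon junction complexes off spliced RNA. It used ENST00000408946 for 41.7% and 39.5% in v3 S34F libraries and 25.5% and 24.5% in v1 S34F libraries, and for 33.9% and 35.6% in v3 WT libraries and 23.6% and 21.3% in v1 WT libraries. RNF7, a RING subunit of cullin ubiquitin ligases, used ENST00000393000 for 50.7% and 56.3% in v3 S34F libraries and 35.4% and 29.3% in v1 S34F libraries. In WT libraries that was 72.1% and 74.0% for v3 and 62.4% and 54.7% for v1. MRAS, IL32, KLHL22 and RP11-452F19.3 belonged to these too. In all, 13 of the 19 named isoforms outside U2AF1 had the same sign, 7 of them at that p, and AAMDC reached it with the opposite sign. Of all isoforms 3.58% reached that p in either direction. The S34F and WT tests draw on the same estimate of each isoform's spread, and the named isoforms were chosen by a small p. The share over all isoforms is therefore not a like background. The correlation of the S34F and WT differences over all isoforms outside U2AF1 was 0.057.

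Reading the same tables by acceptor gave 9 calls of 31388 (0.0287%), and 1389 (4.43%) at an unadjusted p under 0.05. Between v3 WT and v1 WT there were 2 calls (0.00637%), and 1200 (3.82%) at that p. Of the 9, the 2 exon 3 acceptors of U2AF1 rest on the most RNA. Acceptor usage is the FPKM of isoforms that use the site as a percent of all isoforms that span it. The acceptor of the ENST00000291552 exon, at position 43100519 of chromosome 21, was used by 98.4% and 98.0% in v3 S34F libraries, against 1.72% and 1.91% in v1 S34F libraries. That of the ENST00000380276 exon, at 43101432, was used by 3.93% and 4.30% in v3 S34F libraries and 98.2% and 98.0% in v1 S34F libraries. With spanning isoforms of at least 5 FPKM in the mean, these 2 were the only calls. Of the others, 4 were acceptors of 1 CMSS1 isoform (ENST00000496116), whose spanning isoforms summed to 0.0306 and 0.0313 FPKM in v3 S34F libraries. The acceptor of KLHL22 ENST00000487090 fell to 4.49% and 0% in v3 S34F libraries, against 98.0% and 99.4% in v1 S34F libraries, where the spanning isoforms summed to 0.160 and 0.961 FPKM. An acceptor of SEMA6C and one of JMJD7-PLA2G4B, in genes too low for the naming rule, rose by 46.1 and 47.4 points on spanning sums of at most 1.90 FPKM.

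Acceptors are printed here for the exon pair of U2AF1 and for named acceptors whose bases were available. Each shows the last 20 bases of the intron and the first 3 of the exon. Some named acceptors with a smaller p than that of LGALS8, such as that of SDCCAG8, are not printed. The capitals mark positions -3 to -1 of the intron, which end in the AG that U2AF1 reads. Bases were available for acceptors that lie within an exon of another transcript.
U2AF1, exon of ENST00000291552, chr21:43100517-43100539, minus strand: tgttgcgttttgtatttCAGacc
U2AF1, exon of ENST00000380276, chr21:43101430-43101452, minus strand: ttatttttttttccccgCAGacc
CD58, chr1:116519265-116519287, minus strand: gacaatttcttcattttTAGgta
PFN2, chr3:149966262-149966284, minus strand: tgtttccttgtgtactcCAGcat
ZCCHC11, chr1:52424000-52424022, minus strand: gtctgtgttgtatccaaCAGaca
P4HA2, chr5:132227256-132227278, minus strand: gaaagtcttttctccccCAGaca
LGALS8, chr1:236523950-236523972, plus strand: actcctgtcgcttcccgTAGccg

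CD58, the cell surface ligand of CD2 on T cells, has 2 neighbouring acceptors. The one printed above, with T at position -3, was used by 100% and 100% in v3 S34F libraries, against 63.1% and 51.0% in v1 S34F libraries, and the alternative at 116519302, used only by ENST00000464088, took the rest. The difference was 42.9 points (SE 5.78, 95% interval 29.9 to 56.0, adjusted p = 0.0996), and with the replicate number as a block the adjusted p was 0.0293, past the threshold. With WT the printed acceptor was used by 100% and 93.6% for v3 and by 76.1% and 75% for v1, a difference of 21.2 points (unadjusted p = 0.00505). The spanning isoforms summed to 4.28 and 2.79 FPKM in v3 S34F libraries and 3.90 and 6.06 FPKM in v1 S34F libraries, so these shares rest on little RNA.

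PFN2, an actin-binding profilin, rests on more. Its acceptor was used by 76.1% and 79.4% in v3 S34F libraries, against 60.1% and 57.6% in v1 S34F libraries, of 114 to 154 FPKM that span it (18.9 points, SE 3.41, adjusted p = 0.354). With WT it was used by 85.8% and 90.8% for v3 and by 71.5% and 76.8% for v1. SEC31A, a coat protein of vesicles that leave the endoplasmic reticulum, used its acceptor at 82862572 of chromosome 4 by 55.6% and 50.7% in v3 S34F libraries, against 71.4% and 74.5% in v1 S34F libraries. With WT that was 34.4% and 26.0% for v3 and 46.6% and 49.2% for v1. For SEC22C, a vesicle trafficking protein, the difference was -19.1 points with S34F and -16.7 points with WT. For LGALS8, galectin-8, it was -19.2 points with S34F and -18.0 points with WT. For PFN2, SEC31A, SEC22C and LGALS8 the WT difference had an unadjusted p between 0.0015 and 0.00243, with the same sign as with S34F. These p-values too draw on the estimate of spread shared with the S34F test.

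For ZCCHC11 and P4HA2 the WT difference missed an unadjusted p of 0.05. ZCCHC11, a terminal uridylyltransferase, was at 82.0% and 92.2% in v3 S34F libraries against 58.5% and 55.1% in v1 S34F libraries. P4HA2, a collagen prolyl hydroxylase, used exon 2 of 16 of ENST00000379086 by 11.2% and 15.7% in v3 S34F libraries and 32.6% and 31.3% in v1 S34F libraries, and with WT by 14.5% and 13.1% for v3 and 4.05% and 7.14% for v1. The test of the difference between differences called 5 acceptors (0.0159%), the 4 of CMSS1 and that of KLHL22, and 1017 (3.24%) had an unadjusted p under 0.05. Of the 19 named acceptors outside U2AF1 14 had the same sign with WT, and the correlation over all acceptors outside U2AF1 was 0.0925.

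**Figure D5:**
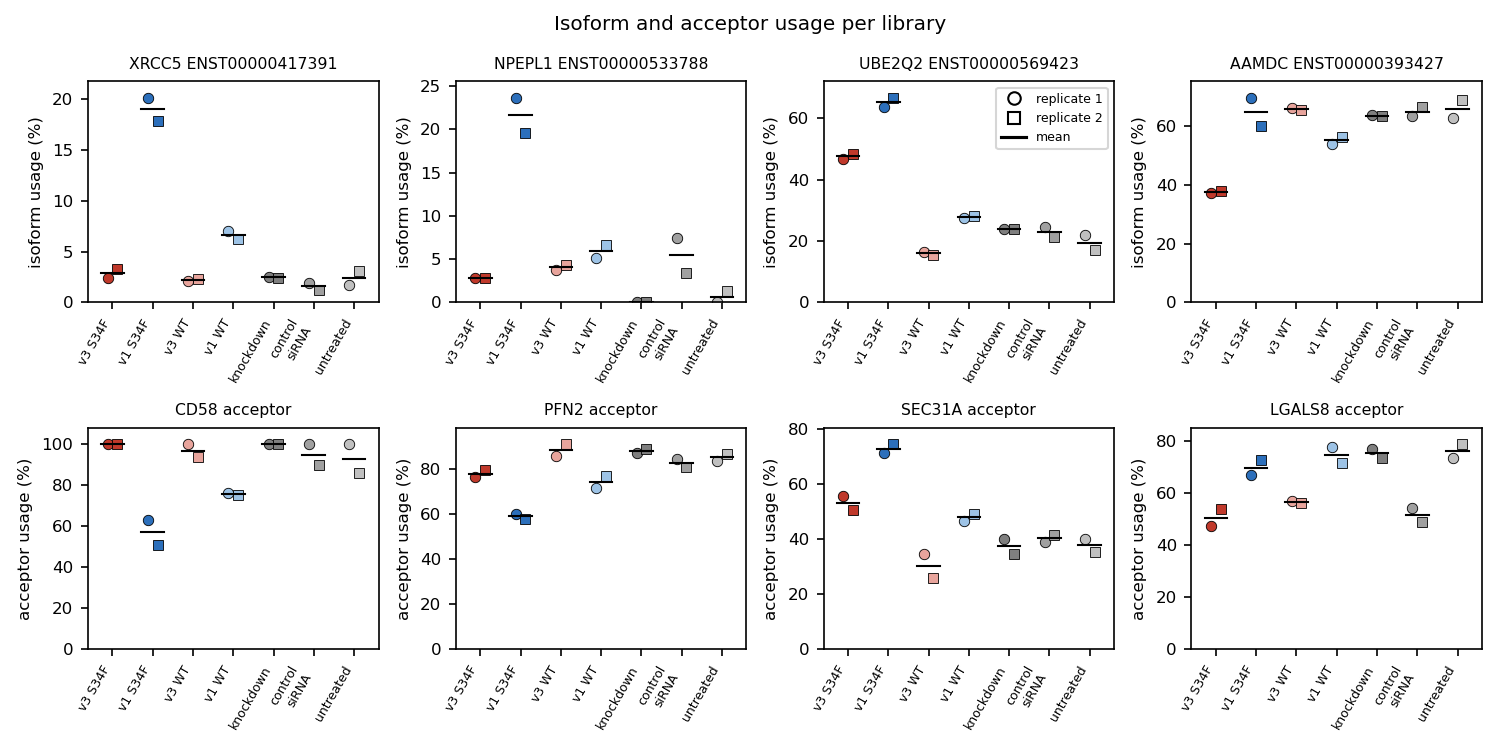
Isoform usage (top) and acceptor usage (bottom) in percent per library, by group from v3 S34F on the left to untreated cells on the right, with lines at the means of 2 libraries. In XRCC5 and NPEPL1 the v1 S34F libraries are high alone, in AAMDC those of v3 S34F are low alone, and in PFN2, SEC31A and LGALS8 v3 differs from v1 with S34F and with WT.

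Acceptors were also sorted by the base at position -3, by which S34F is known to shift acceptor choice. Bases were available for 16926 of the 31388 acceptors tested (53.9%), those within an exon of another transcript, and the rest were not sorted. At an unadjusted p under 0.01 and a difference of at least 5 points, 1 per gene, acceptors with T were more used with v3 S34F in 19 and less used in 8. Those with C were more used in 42 and less used in 59. With A the counts were 10 and 13, and with G 4 and 0. The median difference was 0.92 points over 3642 acceptors with T and 0.26 points over 11483 with C. Between v3 WT and v1 WT the counts were 17 and 12 for T and 39 and 27 for C, with medians of 0.75 and 0.54 points. Outside those above, none of these acceptors was called one by one, and the counts were not tested against each other.

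A last comparison asked whether the effect of S34F differed between the constructs. Averaged over the constructs, S34F minus WT was called in 264 genes (1.85%), 83 higher and 181 lower, and the averaged effect is independent in the design of the difference between constructs. All 264 had the same sign in v3 and in v1, and 0 differed between constructs after adjustment (7 at an unadjusted p under 0.05). The choice by the averaged effect favours a shared sign, here and in the usage and acceptor counts below. These sign counts therefore do not test whether the constructs agree. The median effect in the called direction was 0.59 log2 units with v3 and 0.69 with v1. The effect was larger with v1 in 181 of 264, in 187 within replicate 1 and in 165 within replicate 2. The genes named for this effect, here and for usage, were chosen after their values were seen. NCAPG2, a condensin subunit, was at 14 and 11.5 FPKM in v3 S34F libraries and 12.1 and 11.3 FPKM in v1 S34F libraries, against 35.8 and 32.6 FPKM with v3 WT and 35.8 and 37.5 FPKM with v1 WT. HACL1, an enzyme of fatty acid alpha-oxidation, fell by 1.09 with v3 and by 1.07 with v1.

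In isoform usage, S34F minus WT was called in 312 isoforms (0.748%) of 259 genes, all with 1 sign in both constructs, and 0 differed between constructs after adjustment, 28 at an unadjusted p under 0.05. The median effect was 19.9 points with v3 and 20.9 points with v1, and it was larger with v1 in 200 of 312. Among 510 acceptors so called (1.62%), 503 had the same sign in both and 319 a larger effect with v1. The effect differed between constructs in 5 of the 510 after adjustment, those of CMSS1 and KLHL22 above, and in 53 at an unadjusted p under 0.05. SCAF4, whose protein binds RNA polymerase II, used the acceptor at 31685240 of chromosome 21 less by 28.5 points with v3 and by 28.7 points with v1. UBE2Q2 used that at 75859878 of chromosome 15 less by 41.6 points with v3 and by 47.4 points with v1. FN1, fibronectin, was picked for its unequal effect, with 12.1 points more use with v3 and 32.7 points more with v1 at the acceptor at 215372300 of chromosome 2. There the 4 S34F libraries were at 33.2% and 40.9% with v3 and 50.2% and 48.0% with v1 (difference between the effects -20.6 points, SE 5.13, unadjusted p = 0.00297, adjusted p = 1).

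The libraries of v1 S34F were also more often at the edge of the series than those of v3 S34F. Both v3 S34F libraries were above the other 12 in 130 (0.924%) and below them in 80 (0.568%) of 14074 genes with an isoform of at least 300 bases. Both v1 S34F libraries were above the other 12 in 213 (1.51%) and below them in 334 (2.37%). An edge position was not particular to v1 S34F. The knockdown pair was above all others in 716 genes and below in 1031, and untreated cells in 355 and 402. For control siRNA the counts were 270 and 287, for v3 WT 94 and 74, and for v1 WT 47 and 46. Usage was compared for 32483 isoforms in genes of at least 5 FPKM. There v3 S34F was above all others by 10 points or more in 6 and below by as much in 8. With v1 S34F these counts were 25 and 11, and with knockdown 106 and 66. They were 10 and 1 with control siRNA, 6 and 6 in untreated cells, 2 and 2 with v3 WT, and 0 and 1 with v1 WT. The lower depth of v1 S34F replicate 2 and the short RNA high in its summed FPKM go with this count, and their part in it was not tested.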

How the data were processed

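RNA-seq was done on 14 libraries of A549 cells in 7 groups of 2. The deposited values are FPKM per isoform, 1 table per library, with replicates not pooled, per the file headers. The deposited coverage, per the file headers the mean fragment depth of an isoform, was used for relative depth only, since read counts were not used here. Trimmomatic 0.30, TopHat2 2.0.12 and GRCh37 are named in the submitters' processing notes, and the quantifier and annotation release are not given in those notes or the file headers. FPKM spreads reads over isoforms by estimate, so isoform values are less certain than gene values, and short RNAs are the least certain.

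Gene values were isoform FPKM summed by gene, and usage was isoform FPKM over that sum. Genes had a mean of at least 1 FPKM. Of 14244 such genes, those with an estimate not marked OK were left out, which left 14233. Acceptors came from GENCODE release 29 (GRCh38), which held 102288 of 116194 isoforms of these genes. Tests were limma 3.58.1 in R 4.3.3 on 7 group means over all 14 libraries, on log2(FPKM + 1) or on percent, with 7 residual degrees of freedom, two-sided, with Benjamini-Hochberg adjustment over all features. A feature was called at an adjusted p under 0.05. The fit was tested on simulated data. Named genes were those called, filled to 10 in each direction by the smallest unadjusted p among genes whose groups did not overlap, with an isoform of at least 300 bases. Of these genes, 1 is not reported here. Isoforms and acceptors were named likewise, 1 per gene, in genes with a mean of at least 5 FPKM. The members and lists were chosen with earlier results of these data known.

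Replicate numbers in the titles are shared between groups. Deviations from the group means of same-numbered libraries correlated in all 21 pairs of groups (Pearson's r 0.160 to 0.571 over genes), so the numbers were taken to pair the libraries. Over isoform usage r was lower, 0.0134 to 0.170, so the pairing rests on the gene values, and a fit with the replicate block was an alternative. Other alternatives were the pseudocount, filters, scaling, the scale of usage, the 4 S34F libraries alone and leaving out each library.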

Additional observations from a re-analysis of the deposited data

Results flagged for a closer look

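In 2 genes, acceptor usage differed between v3 S34F and v1 S34F by an amount that differed from the WT difference, by limma's test of the difference between these differences. In CMSS1 it was 103 points, from 99.8% and 99.9% in v3 S34F libraries against at most 1.67% in v1 S34F libraries, while v3 WT libraries had at most 0.998% and v1 WT libraries 4.24% and 5.07%. The isoforms that span it summed to 0.0306 and 0.0313 FPKM in v3 S34F libraries and 0.698 and 2.23 FPKM in v1 S34F libraries. In KLHL22 it was -94.5 points, from 4.49% and 0% in v3 S34F libraries against 98.0% and 99.4% in v1 S34F libraries, with 0% and 15.8% for v3 WT and 7.82% and 12% for v1 WT. Its spanning isoforms summed to 3.55 and 3.30 FPKM in v3 S34F libraries and 0.160 and 0.961 FPKM in v1 S34F libraries. The part of these low levels in both results was not tested.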

How the results depend on the processing

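With S34F, the count of genes called, 0 in the report, was 22 with no filter on low values, all with a mean of at most 0.135 FPKM, and 3 to 6 when a library was left out, all RNAs whose longest isoform is 75 to 223 bases. Between v3 WT and v1 WT it was 10 with no filter, 1 with a pseudocount of 0.1 and 1 to 3 when a library was left out. For the difference between S34F and WT it was 15, 1 and 1 to 6 under the same changes. The count of isoforms, 2 with S34F, was 0 on the 4 S34F libraries alone and 9 to 18 when a library was left out. It was 6 to 8 for WT and 2 to 8 for the difference between S34F and WT when a library was left out. The count of acceptors, 9, was 2 with spanning isoforms of at least 5 FPKM and 14 to 46 when a library was left out, highest without v1 S34F replicate 1. A fit with 1 library in a group assumes that it varies like the others. The log2 difference of U2AF1 (-0.15) ranged from -0.56 to 0.26 when a library was left out, and was 0.16 without v3 S34F replicate 1 and 0.26 without v1 S34F replicate 2. Both of these leave the replicates unequal between the constructs, and U2AF1 was higher in replicate 2 of each. Within each replicate it was lower with v3 S34F, at 2114 against 2180 FPKM and at 3239 against 3852 FPKM. The causes were not tested.

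With the replicate block, 0 genes, 2 isoforms and 12 acceptors were called. Among named features it changed the call of CD58 alone (adjusted p = 0.0293, limma). Without v1 S34F replicate 1, CD58 (adjusted p = 0.0451) and SDCCAG8 (adjusted p = 0.0218) passed the threshold. KLHL22 missed it on the arcsine scale (adjusted p = 0.0632), and on the 4 S34F libraries alone both U2AF1 isoforms missed it (ENST00000380276 with adjusted p = 0.121). Apart from these and the sign of U2AF1, the alternatives run left the named genes, isoforms and acceptors on their side of the threshold with their direction kept. Depth is known only in relative terms. Even before adjustment, the fit without the replicate block, at 2 libraries a group, leaves typical differences under about 0.41 log2 units or 10.9 points unresolved. A call takes more. The variation that same-numbered libraries share is part of this limit.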
